A study of Homo sapiens with 18 samples.

Results

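The genes described here are 36 transcripts of the unfolded protein response and of the amino acid stress response, out of 19401 genes listed in at least 1 of 3 deposited tables of RNA-seq in MCF10A cells. MCF10A is a non-tumorigenic line of human breast epithelial cells that grows without limit. The members were taken by symbol from the tables and joined by Entrez ID. All 36 were listed for CBFB KO and for RUNX1 KO1, and 34 were listed for RUNX1 KO2, where SDF2L1 and DDIT3 had no row. By role they were 14 chaperones and folding enzymes of the endoplasmic reticulum (ER), 3 genes of ER-associated degradation, 3 sensors and transcription factors of the unfolded protein response, ATF4 itself, and 15 genes that ATF4 is known to induce. The last set held 7 stress regulators, 5 enzymes of amino acid synthesis and 3 tRNA synthetases.

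The 18 samples formed 5 groups, and every sample was MCF10A with no treatment named in the labels. CBFB KO (3 samples) was made with CRISPR-Cas9, as the study's RUNX1 knockouts were, and was compared with its own WT (3 samples). RUNX1 KO1 and RUNX1 KO2 (4 samples each) came from 2 clones and were both compared with the same WT (4 samples). CBFB is the partner that helps RUNX transcription factors bind DNA. The study reports that RUNX1 protein was lost as well when CBFB was deleted. Deleting RUNX1 left the total CBFB protein level unchanged, but CBFB in the nucleus was reported as decreased. By that account CBFB KO is also a loss of RUNX1 protein, and RUNX1 KO also lowers nuclear CBFB. The knockouts of the 2 genes also came from separate experiments. For these reasons the comparisons do not separate dependence on CBFB from dependence on RUNX1. Each knockout group was a single clone, so the effect of the lost gene and differences between clones cannot be told apart.

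When unfolded proteins build up in the ER, the sensors IRE1 (the product of ERN1), PERK (EIF2AK3) and ATF6 are activated. ATF6 and the spliced form of XBP1 then turn on ER chaperones and degradation genes through the ER stress element, while PERK phosphorylates eIF2 and thereby raises translation of ATF4. Other kinases reach ATF4 through the same step when amino acids are short. ATF4 with C/EBP partners binds the C/EBP-ATF element and induces genes for amino acid synthesis, amino acid transport and tRNA charging, and the stress factor CHOP (DDIT3). Much of this control acts on splicing, cleavage and translation, which gene-level RNA values do not measure. Secretory and epithelial cells keep ER chaperones abundant also without stress.

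The promoters of several members hold the elements named above, through which ATF6, XBP1 and ATF4 are known to act. Members holding such an element were ranked by tables past the adjusted threshold, then by mean absolute log2 fold change. Only the windows of the first ones are printed, so they cannot show whether an element goes with a change. CHAC1, ASNS, XBP1, GARS and CEBPG hold such an element too, passed in no table, and are not printed. The printed windows are RefSeq sequences of GRCh38.p14. They are read on the gene's own strand within the 250 bases before an annotated start, with the element in capitals. PDIA6, CANX, HSPA5 and HSP90B1 hold the ER stress element, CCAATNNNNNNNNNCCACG on either strand, and AARS and HERPUD1 hold the C/EBP-ATF element, TGATGNAAN on either strand.
PDIA6, chr2:10812823-10812901, minus strand: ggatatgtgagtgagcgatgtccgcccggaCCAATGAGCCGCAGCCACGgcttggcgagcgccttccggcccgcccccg
CANX, chr5:179698748-179698826, plus strand: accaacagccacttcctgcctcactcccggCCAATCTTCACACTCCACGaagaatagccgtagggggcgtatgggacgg
HSPA5, chr9:125241361-125241439, minus strand: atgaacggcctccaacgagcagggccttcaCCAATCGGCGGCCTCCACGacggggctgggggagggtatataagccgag
HSP90B1, chr12:103930216-103930339, plus strand: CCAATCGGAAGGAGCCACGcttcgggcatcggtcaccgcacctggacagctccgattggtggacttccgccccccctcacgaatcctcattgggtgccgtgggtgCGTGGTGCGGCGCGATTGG
AARS, chr16:70289651-70289729, minus strand: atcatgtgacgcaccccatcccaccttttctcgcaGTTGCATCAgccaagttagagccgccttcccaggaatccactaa
HERPUD1, chr16:56931930-56932008, plus strand: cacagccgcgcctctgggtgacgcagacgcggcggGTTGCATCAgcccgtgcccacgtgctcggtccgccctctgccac

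Promoters were matched for 33 of the members, all but PDIA3, PSPH and SHMT2. The ER stress element was found in 7 of the 33, namely HSPA5, HSP90B1, CALR, CANX, PDIA6, CRELD2 and XBP1, and in 26 of all 35116 promoter windows (0.0740%), some genes having a window for each of several starts. A shorter variant known as ER stress element II, searched on either strand, was found in SDF2L1, HYOU1 and HERPUD1 and in 0.0513% of all promoters, and the HYOU1 promoter held that variant at 2 positions. HYOU1 also held TGACGTGG, the binding element of spliced XBP1, which 0.612% of all promoters contained, and which there overlaps 1 of the variant's positions. The C/EBP-ATF element was found in 6 members, namely HERPUD1, CHAC1, ASNS, CEBPG, AARS and GARS, and in 3.13% of all promoters. HERPUD1 thus held elements of both kinds, its ER stress element II lying downstream of the printed window. None of the 13 ER chaperones with a promoter held the C/EBP-ATF element, and none of the 13 ATF4 targets with a promoter held the ER stress element. The core RUNX motif TGTGGT was found in 4 members (12.1% of 33) and in 10.98% of all promoters. These matches describe the letters of the windows and not binding.

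The values that follow are those of the authors' deposited tables. Each table gives 1 mean of normalized read counts over all libraries of the comparison, a log2 fold change, the standard error of that change (SE) and an adjusted p from the authors' Wald test, and it gives no value per library. A group level printed here is the level implied by that mean and fold change, in normalized counts. It is approximate, also because the fold changes may have been shrunk toward 0. A signed value given with an SE is a log2 fold change against WT, and a call means an adjusted p under 0.05. The deposited means summed over all listed genes to 20214423 normalized counts (CBFB KO), 18050386 (KO1) and 16467400 (KO2). Over genes whose mean reached 100, the median SE was 0.12 (CBFB KO), 0.10 (KO1) and 0.21 (KO2), so the KO2 table resolves smaller changes least well. CBFB mRNA was lowered to 0.0340 of its WT level in CBFB KO (adjusted p = 1.39e-252). RUNX1 mRNA was 1.46-fold of WT in KO1 and 1.37-fold in KO2, and a gene-level count does not check a small CRISPR lesion. The epithelial markers KRT5, KRT17, KRT18 and CDH1 had means from 3351 to 101688. Of the 12 epithelial markers, 8 were higher and 1 lower in CBFB KO, 9 higher and 1 lower in KO1, and of 11 listed 4 were higher in KO2. Over all genes tested, 11.7% (CBFB KO), 19.7% (KO1) and 8.76% (KO2) were higher. The median log2 fold changes of the epithelial markers were 0.64, 0.59 and 0.52. KRT14 was at 2.97 in CBFB KO and 2.95 in KO1, and KRT5 was the marker that was lower in both. The part of this shift in the members' changes was not tested. The endothelial and T cell markers PECAM1, VWF, CDH5 and CD3E stayed under 1 wherever they were listed. Of the fibroblast markers, COL1A1 was at 236 to 305 and was higher in each knockout, DCN was at 6.66 to 7.34 and was lower in each, at -1.06 (CBFB KO), -1.80 (KO1) and -1.61 (KO2), and COL1A2 and LUM were under 1. The summed fibroblast list was 155 in WT and 477 in KO1, and its part in the results was not tested. Of the leukocyte markers CD68 and CD14 were at 128 to 303 and PTPRC under 1. CD68 rose by 0.69 in CBFB KO (adjusted p = 0.0286) and by 0.52 in KO1 (adjusted p = 2.93e-04), CD14 did not pass in any table, and their part was not tested either.

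The members spanned a wide range of abundance, as the plot of WT levels shows. Per kilobase of transcript, the WT level in the RUNX1 experiment (KO1 table) ran from 2.45 for VLDLR, a lipoprotein receptor gene, to 10792 for CALR, which encodes calreticulin. The abundant ER chaperones CALR, HSP90B1 (GRP94), HSPA5 (BiP) and CANX (calnexin) had 10792, 8540.1, 4862 and 4574 normalized counts per kilobase, with ATF4 at 3648. The 14 ER chaperones together took 0.587% of all normalized counts in the KO1 table, and the 15 ATF4 targets took 0.115%. The sensor gene ERN1 was at 5.26 per kilobase, and CHAC1, a glutathione-degrading enzyme of the ATF4 pathway, was at 13.9. VLDLR, CHAC1 and ERN1 were the members with a mean under 100 in at least 1 table, while the other 33 were at or above it in every table that listed them.

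**Figure D1:**
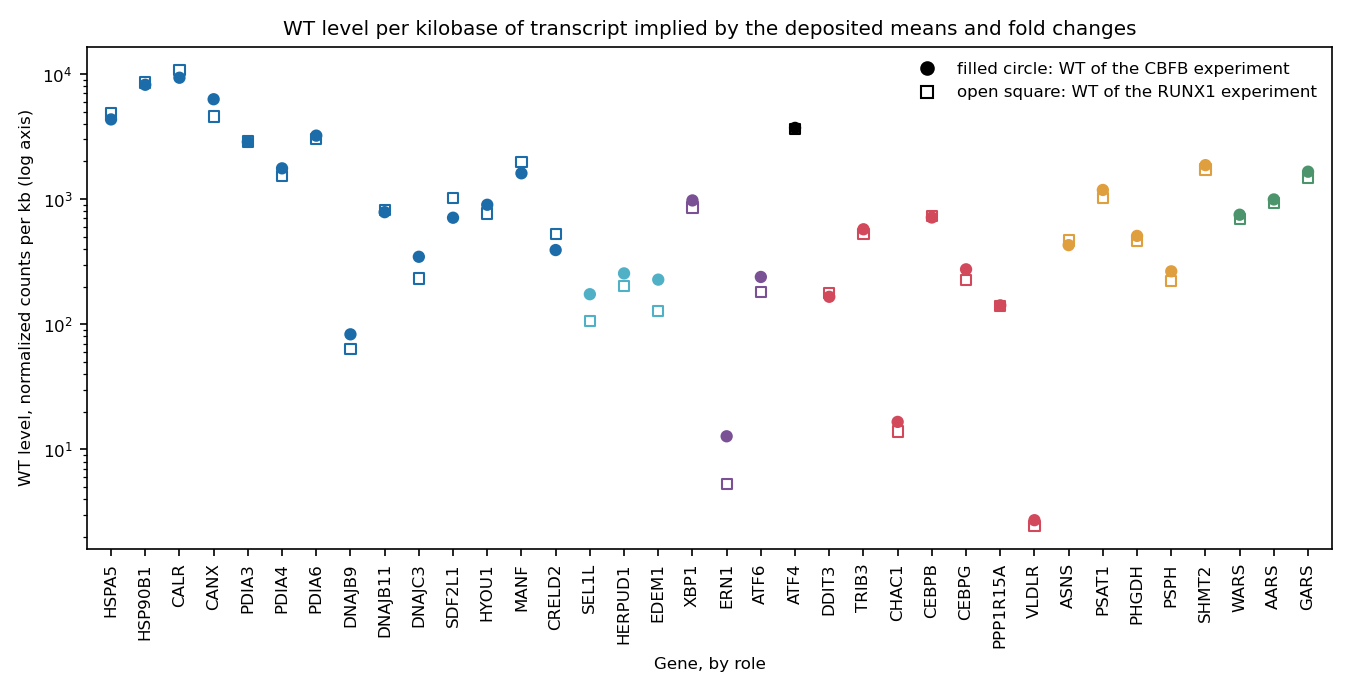
WT level of each member per kilobase of its transcript (normalized counts per kb, log axis), from the CBFB table (filled circles) and the KO1 table (open squares), colored by role. The points have no error bars because the tables give no value per library, and in the KO1 table they run from 2.45 (VLDLR) to 10792 (CALR).

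Over all members, RUNX1 KO1 had the most calls. In KO1 20 members fell and 5 rose, and 11 did not pass the test. The background in that table was 19.9% of 16394 genes lower and 19.7% higher. In CBFB KO 4 members fell and 1 rose, against 7.97% of 14975 genes lower and 11.7% higher. In KO2 2 members fell and none rose, against 6.08% of 15636 genes lower and 8.76% higher. There 8 members had an unadjusted p under 0.05 in the authors' Wald test, a cut for which no share over all genes is given. Among these 8, VLDLR was higher and the others were lower. The members' median log2 fold change was 0.02 (CBFB KO), -0.21 (KO1) and -0.09 (KO2), beside -0.01, -0.00 and 0.02 over all genes tested. Most changes were under 2-fold. Only CEBPB in KO1 passed the test with a fold change of at least 2, and that joint rule was met by 2.98% (CBFB KO), 4.93% (KO1) and 5.48% (KO2) of all genes tested. By pattern, 14 members passed as lower in KO1 and in no other table, among them SDF2L1 and DDIT3, which have no row for KO2, 4 fell in CBFB KO and KO1, 2 fell in KO1 and KO2, 5 rose in KO1, 1 rose in CBFB KO, and 10 passed in no table. KO1 and KO2 share their WT libraries, so their values are given side by side and no agreement between them is drawn.

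**Figure D2:**
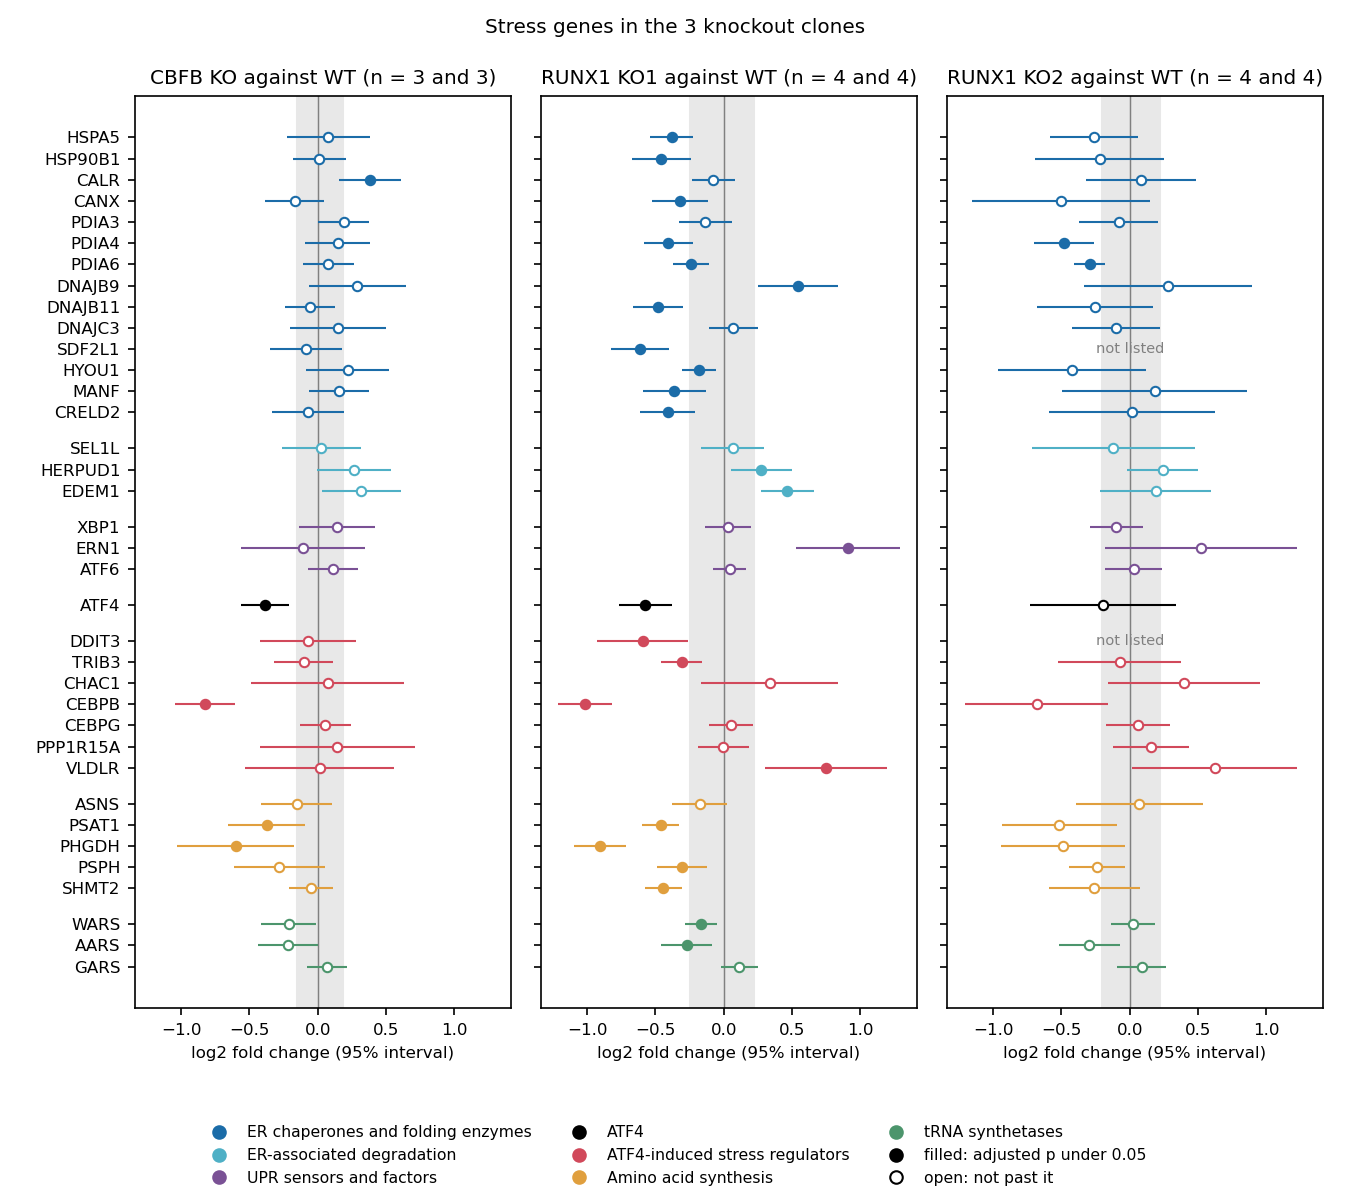
Log2 fold change of the 36 members against WT with 95% intervals (SE-based), 1 panel per knockout and rows grouped by role. Filled points have an adjusted p under 0.05, and the gray band is the middle 50% of genes whose mean reached 100. In the KO1 panel 10 ER chaperones lie left of 0 with filled points, whereas in the CBFB KO panel CALR is the only filled ER chaperone and lies right of 0.

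Most of the 14 ER chaperones and folding enzymes fell in RUNX1 KO1, and none of them fell in CBFB KO. Over all genes tested, 19.9% fell and 19.7% rose in KO1, 7.97% and 11.7% in CBFB KO, and 6.08% and 8.76% in KO2. In KO1 10 of the 14 fell, 1 rose and 3 did not pass, with a median log2 fold change of -0.34 and a range from -0.61 (SDF2L1) to 0.54 (DNAJB9). In CBFB KO 1 of the 14 rose, with a median of 0.11 and a range from -0.17 (CANX) to 0.38 (CALR). There 2 had an unadjusted p under 0.05 in the authors' Wald test, a cut for which no share over all genes is given. In KO2 2 of 13 fell and none rose, with a median of -0.22 and a range from -0.50 (CANX) to 0.28 (DNAJB9). The summed level of the list went from 116448 in WT to 95587 in KO1, a ratio of 0.821. The same ratio was 1.06 in CBFB KO and 0.870 in KO2, the latter over the 13 listed genes. In these bulk samples fewer cells with high ER chaperone RNA and less RNA per cell cannot be told apart.

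HSPA5 (Entrez ID 3309) encodes BiP, the major ER chaperone of the heat shock 70 family, which also holds the stress sensors inactive. Its level was 19003 in WT and 14589 in KO1, a log2 change of -0.38 (SE 0.08, adjusted p = 1.82e-05). In KO2 the level was 14927 against 17894 in WT, at -0.26 (SE 0.16, adjusted p = 0.354) with a 95% interval from -0.58 to 0.06. In CBFB KO it was 17856 against 16927 in WT, at 0.08 (SE 0.15, adjusted p = 0.796). HSPA5 thus fell in KO1, while the interval in CBFB KO (-0.23 to 0.38) spans 0. RefSeq lists 1 pseudogene of HSPA5, and how reads were divided between such copies is not given in the sources used here.

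HSP90B1, the ER form of heat shock protein 90, went from 24408 in WT to 17775 in KO1, a log2 change of -0.46 (SE 0.11, adjusted p = 1.72e-04). CANX, the membrane lectin calnexin, fell by 0.32 on the log2 scale in KO1 (SE 0.10, adjusted p = 0.0085). Its soluble relative CALR did not pass in KO1 (-0.08, SE 0.08) and rose in CBFB KO from 17746 to 23132 (log2 fold change 0.38, SE 0.12, adjusted p = 0.00873). These lectins fold the same class of glycoproteins, and CALR was the only one of the 14 members of this role that rose in CBFB KO by this test.

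The disulfide isomerases PDIA4 and PDIA6 passed in both RUNX1 clones. PDIA4 went from 4413 in WT to 3333 in KO1 (-0.41, SE 0.09, adjusted p = 4.89e-05) and from 4161 to 2981 in KO2 (-0.48, SE 0.11, adjusted p = 2.9e-04). PDIA6 went from 7041 to 5959 in KO1 (-0.24, SE 0.07, adjusted p = 0.00165) and from 6644 to 5419 in KO2 (-0.29, SE 0.06, adjusted p = 4.9e-06). In CBFB KO the log2 fold changes were 0.15 (SE 0.12) for PDIA4 and 0.08 (SE 0.10) for PDIA6, and neither passed. PDIA6 had the smallest SE of all members in KO2. PDIA3, the isomerase that works with calnexin and calreticulin, passed in no table, at 0.19 (CBFB KO), -0.13 (KO1) and -0.08 (KO2).

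Of the partners of BiP and the smaller stress-induced ER proteins, 5 fell and 1 rose in KO1. Over all genes tested there, 19.9% were lower and 19.7% higher. These genes are part of the ER chaperone list counted above and are grouped here for description only. None of them passed in CBFB KO, nor in KO2 where listed. SDF2L1, an ER protein that keeps BiP substrates soluble, had 879 in WT and 575 in KO1 (-0.61, SE 0.11, adjusted p = 1.76e-07), and 614 and 579 in CBFB KO (-0.09, SE 0.14, adjusted p = 0.735). DNAJB11, a cochaperone of BiP, fell by 0.48 on the log2 scale in KO1 (SE 0.09, adjusted p = 2.27e-06). The secreted ER factors MANF and CRELD2 fell by 0.36 (SE 0.12) and 0.41 (SE 0.10) on the log2 scale in KO1, though MANF was at -0.16 and no longer passed once the dependence of fold changes on transcript length and base composition had been taken out. HYOU1, the nucleotide exchange factor of BiP, fell by 0.18 (SE 0.06). DNAJB9, a BiP cochaperone that acts in ER-associated degradation and on IRE1, rose in KO1 from 172 to 251 (0.54, SE 0.15, adjusted p = 0.00111). Its log2 fold changes were 0.29 (SE 0.18, adjusted p = 0.276) in CBFB KO and 0.28 (SE 0.31, adjusted p = 0.691) in KO2. DNAJC3, an ER cochaperone of the same family, passed in no table.

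Of the genes of ER-associated degradation, 2 of 3 rose in KO1, beside 19.7% of all genes tested, and the sensor gene ERN1 rose there too. EDEM1, a mannosidase-like protein that marks misfolded glycoproteins for removal, rose from 781 to 1079 in KO1 (0.47, SE 0.10, adjusted p = 2.09e-05), with 0.32 in CBFB KO (SE 0.15, adjusted p = 0.118) and 0.19 in KO2 (SE 0.21). HERPUD1, a scaffold of the degradation complex, rose in KO1 (0.28, SE 0.11, adjusted p = 0.0406), with 0.27 in CBFB KO and 0.24 in KO2, neither past the threshold. SEL1L, the adaptor of the ubiquitin ligase HRD1, lay between -0.12 and 0.06 and passed in no table. The median of these 3 genes was 0.27 (CBFB KO), 0.28 (KO1) and 0.19 (KO2).

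ERN1 (Entrez ID 2081) was at 41.4 normalized counts in WT and 77.8 in KO1, a log2 change of 0.91 (SE 0.19, adjusted p = 1.89e-05). It was at 39.6 and 56.8 in KO2 (0.52, SE 0.36, adjusted p = 0.422) and at 100.3 and 93.3 in CBFB KO (-0.10, SE 0.23, adjusted p = 0.819). XBP1 (Entrez ID 7494), whose mRNA is the substrate of IRE1, was at 1587 in WT and 1624 in KO1 (0.03, SE 0.09, adjusted p = 0.799). Its log2 fold changes in CBFB KO and KO2 were 0.14 (SE 0.14, adjusted p = 0.556) and -0.10 (SE 0.10, adjusted p = 0.647). ATF6 had 0.11, 0.04 and 0.03 in the order CBFB KO, KO1 and KO2, and did not pass. Gene-level values do not distinguish spliced from unspliced XBP1 or full-length from cleaved ATF6.

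ATF4 (Entrez ID 468) was lower in CBFB KO and in KO1. Its level was 7484 in WT and 5741 in CBFB KO (-0.38, SE 0.09, adjusted p = 2.76e-04), and 7366 in WT and 4943 in KO1 (-0.58, SE 0.10, adjusted p = 7.14e-08). In KO2 it was 6033 against 6912 in WT (-0.20, SE 0.27, adjusted p = 0.766), with a 95% interval from -0.73 to 0.34 that contains both other values. RefSeq lists 4 pseudogenes of ATF4, so the share of its reads that other copies could take is uncertain.

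The ATF4 targets fell more often than they rose where they passed the test. The shares over all genes tested were 7.97% lower and 11.7% higher in CBFB KO. They were 19.9% and 19.7% in KO1, and 6.08% and 8.76% in KO2. In CBFB KO 3 of 15 fell and none rose, with a median of -0.10, which was -0.17 with the length and GC trend removed. In KO1 9 fell and 1 rose, with a median of -0.27. In KO2 none of the 14 listed targets passed, with a median of -0.02. Of these 14, 6 had an unadjusted p under 0.05 in the authors' Wald test, a cut for which no share over all genes is given. Among the 6, VLDLR was higher, and CEBPB, PSAT1, PHGDH, PSPH and AARS were lower. The KO2 median was -0.16 over targets with a mean of at least 100 and -0.12 with the trend removed. Their range was wide in each table, from -0.82 to 0.14 in CBFB KO, -1.01 to 0.75 in KO1 and -0.68 to 0.62 in KO2, with CEBPB the lowest each time.

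CEBPB (Entrez ID 1051), a C/EBP transcription factor that pairs with ATF4, had the largest fall of all members in CBFB KO and KO1. It was at 1394 in WT and 788 in CBFB KO (-0.82, SE 0.11, adjusted p = 1.29e-11). It was at 1425 in WT and 706 in KO1 (-1.01, SE 0.10, adjusted p = 8.88e-22). In KO2 it was at 824 against 1321 (-0.68, SE 0.27, adjusted p = 0.0651), which missed the threshold. Taking out the length and GC trend put the KO2 value at -0.93, which passed. Its partner CEBPG had 0.05, 0.05 and 0.06 in the 3 tables with SEs up to 0.12, and passed in none.

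DDIT3 (Entrez ID 1649), which encodes the stress factor CHOP, was at 166 in WT and 110.0 in KO1 (-0.59, SE 0.17, adjusted p = 0.0019) and at 156 and 149 in CBFB KO (-0.07, SE 0.18, adjusted p = 0.847). With the length and GC trend removed, the KO1 value of DDIT3 was -0.34 and no longer passed. TRIB3, a pseudokinase that restrains ATF4, fell by 0.31 in KO1 (SE 0.08, adjusted p = 2.4e-04) and was at -0.10 in CBFB KO and -0.07 in KO2. PPP1R15A, the phosphatase subunit that reverses eIF2 phosphorylation, and CHAC1 passed in no table. VLDLR (Entrez ID 7436) rose in KO1 from 22.5 to 37.8 normalized counts (0.75, SE 0.23, adjusted p = 0.00381), and was at 0.62 in KO2 (SE 0.31, adjusted p = 0.187) and 0.01 in CBFB KO (SE 0.28, adjusted p = 0.982). At these counts the SE of VLDLR and CHAC1 was 0.23 or more in every table.

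Of the 5 amino acid enzymes, PHGDH and PSAT1 of serine synthesis had the lowest values in each table. PHGDH (Entrez ID 26227) catalyzes the first step of serine synthesis from glycolysis. It was at 1314 in WT and 867 in CBFB KO (-0.60, SE 0.22, adjusted p = 0.0338), at 1194 and 638 in KO1 (-0.90, SE 0.10, adjusted p = 1.14e-18), and at 1119 and 797 in KO2 (-0.49, SE 0.23, adjusted p = 0.158). PSAT1, the second step, was at -0.37 in CBFB KO (SE 0.14, adjusted p = 0.0464), -0.46 in KO1 (SE 0.07, adjusted p = 6.37e-10) and -0.52 in KO2 (SE 0.21, adjusted p = 0.0894). The CBFB KO call of PSAT1 lay just inside the threshold and was lost with the length and GC trend removed (-0.35). The KO2 value of PHGDH passed under that same setting (-0.63).

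PSPH, which completes serine, fell by 0.31 in KO1 (SE 0.09, adjusted p = 0.00361) and was at -0.28 in CBFB KO and -0.24 in KO2, neither past the threshold. SHMT2, which splits serine into glycine and a one-carbon unit in mitochondria, went from 4374 to 3219 in KO1 (-0.44, SE 0.07, adjusted p = 1.41e-09), and its CBFB KO value was -0.05 (SE 0.08). ASNS (Entrez ID 440), asparagine synthetase and a textbook ATF4 target, did not pass in any table. ASNS was at 1009.9 and 907 in CBFB KO (-0.15, SE 0.13, adjusted p = 0.466), at 1098 and 971 in KO1 (-0.18, SE 0.10, adjusted p = 0.171) and at 1041 and 1093 in KO2 (0.07, SE 0.24, adjusted p = 0.92). RefSeq lists 5 pseudogenes of ASNS and 4 of PSAT1. All 5 enzymes had negative log2 fold changes in CBFB KO and KO1, with medians of -0.28 and -0.44, and the median in KO2 was -0.26.

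Changes of the 3 tRNA synthetases were within 0.30 on the log2 scale in every table. AARS and WARS, which charge the tRNAs for alanine and tryptophan, fell in KO1 by 0.27 (SE 0.10, adjusted p = 0.0149) and 0.16 (SE 0.06, adjusted p = 0.0167). In CBFB KO they were at -0.22 and -0.21 with adjusted p = 0.176 and 0.141. AARS was at -0.30 in KO2 (SE 0.11, adjusted p = 0.057), just outside the threshold. GARS, for glycine, lay between 0.07 and 0.12 and passed in no table, although its promoter, like that of AARS, holds the C/EBP-ATF element.

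The response of CBFB KO was next tested directly against that of each RUNX1 clone, which shares no library with it. The normal test of the difference of log2 fold changes was adjusted over all genes tested in both tables, and the 2 experiments and the 2 lost genes cannot be told apart in it. Between CBFB KO and KO1, 8 of 36 members differed, beside 9.84% of 14940 genes. Of these, 6 were ER chaperones that were relatively higher in CBFB KO. PDIA4 differed by 0.55 (SE 0.15, adjusted p = 0.00747), SDF2L1 by 0.53 (SE 0.17, adjusted p = 0.0305), MANF by 0.52 (SE 0.16, adjusted p = 0.021), HSP90B1 by 0.47 (SE 0.15, adjusted p = 0.0235), CALR by 0.46 (SE 0.14, adjusted p = 0.021) and DNAJB11 by 0.42 (SE 0.13, adjusted p = 0.0216). The other ER chaperones did not pass, HSPA5 included (0.46, 95% interval 0.12 to 0.80, adjusted p = 0.0714). The median difference of the 14 was 0.41, beside 0.01 over all genes.

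Of the 15 ATF4 targets, SHMT2 was the only one past the threshold of that test (0.39, SE 0.11, adjusted p = 0.00674), beside 9.84% of 14940 genes. That count is near the share, so it is not particular to the targets. Their median difference was 0.05. CEBPB differed by 0.19, PHGDH by 0.31 and ATF4 by 0.19, none past the threshold, and the 95% intervals of CEBPB (-0.11 to 0.49) and PHGDH (-0.16 to 0.77) leave room for a difference either way. ERN1 was relatively lower in CBFB KO (-1.01, SE 0.30, adjusted p = 0.0155). Against KO2, 2 of 34 members differed, beside 2.9% of 14503 genes, and they were PDIA4 (0.63, SE 0.17, adjusted p = 0.00888) and PDIA6 (0.37, SE 0.11, adjusted p = 0.0331). These calls depend on the length and GC trend. With it removed from both tables, 2 members differed from KO1 (HSP90B1 and PDIA4) and 1 from KO2 (PDIA4).

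**Figure D3:**
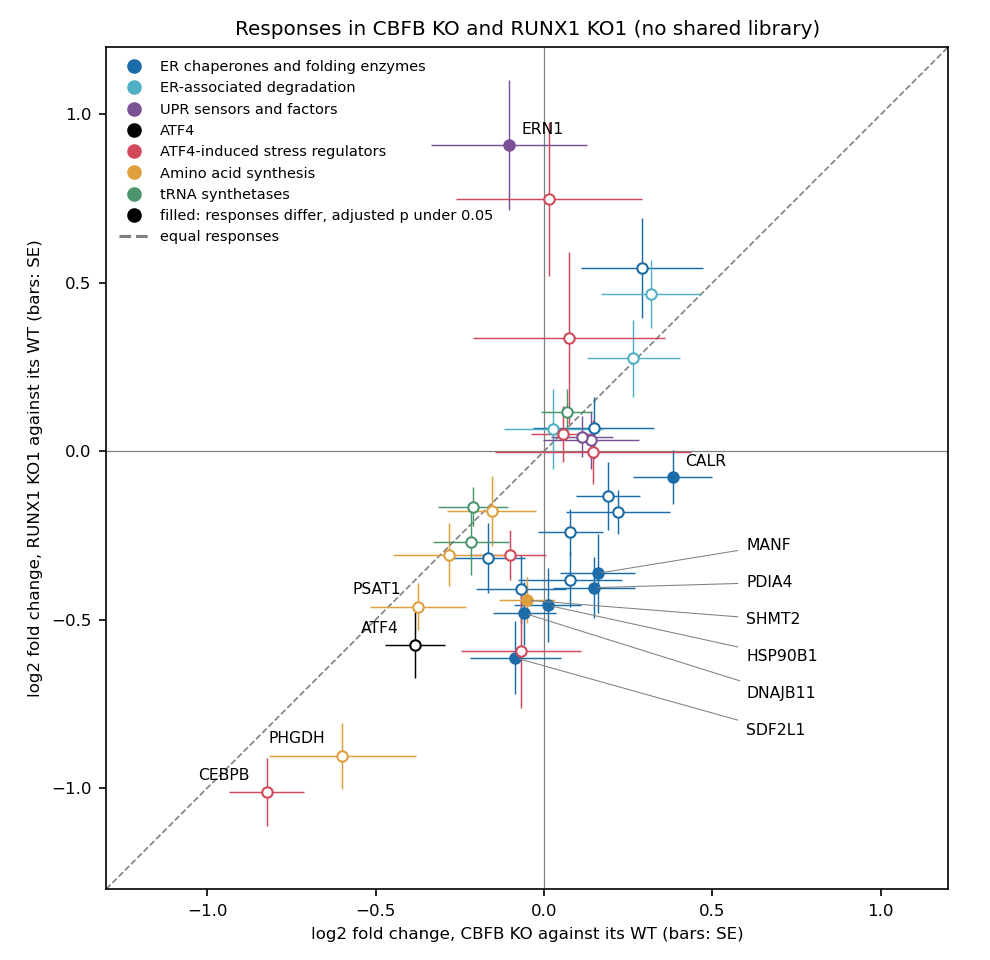
Log2 fold change of each member in CBFB KO (horizontal axis) and RUNX1 KO1 (vertical axis), with SE bars and the line of equal responses dashed. Filled points differ between the tables at an adjusted p under 0.05, and 6 of the 8 are ER chaperones lying below the line, while CEBPB, PHGDH, PSAT1 and ATF4 are open points near it.

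Related gene lists were counted in the same way. Their counts stand beside the background shares given above. These were 19.9% lower and 19.7% higher in KO1, 7.97% lower and 11.7% higher in CBFB KO, and 6.08% lower and 8.76% higher in KO2. A count near its share is not particular to a list. In KO1 the ER entry channel, the signal peptidase and translocon genes through which proteins reach the ER, had 5 of 16 lower and none higher, with a median of -0.10. The lower genes were SPCS2 (-0.42, SE 0.08), SPCS1 (-0.35, SE 0.12), SSR2 (-0.33, SE 0.10), SSR4 (-0.24, SE 0.10) and SSR1 (-0.23, SE 0.09). None of the 16 passed in CBFB KO or KO2, where the medians were 0.10 and -0.01. The other 21 folding and glycan-processing genes of the ER had 2 higher and 2 lower in KO1, with a median of -0.00. In CBFB KO 6 of these 21 rose and none fell, among them DNAJC10 (0.36, SE 0.12), PRKCSH (0.33, SE 0.10), PDIA5 (0.32, SE 0.10) and P4HB (0.31, SE 0.11), and the list's median was 0.16. DNAJC10, a reductase that prepares proteins for degradation, also rose in KO1 (0.41, SE 0.07, adjusted p = 8.32e-08).

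Every other gene of ER-associated degradation that passed in CBFB KO or KO1 rose. In CBFB KO 4 of 19 tested rose and none fell, and in KO1 7 of 19 rose and none fell, with medians of 0.19 and 0.10. In KO2 none of 19 passed. Of these, 2 had an unadjusted p under 0.05 in the authors' Wald test, a cut for which no share over all genes is given. MAN1B1, UBE2J1 and HERPUD2 rose in both CBFB KO (0.38, 0.33 and 0.34) and KO1 (0.39, 0.36 and 0.34). Of the 8 other sensors and proteases tested, 2 rose and 1 fell in KO1, and 1 rose in CBFB KO. EIF2AK3, which encodes PERK, rose in KO1 (0.69, SE 0.13, adjusted p = 1.47e-06), and MBTPS1, the protease that cleaves ATF6, rose in CBFB KO (0.22) and in KO1 (0.20). ERN2, a paralog of ERN1, fell in KO1 (-0.69, SE 0.17, adjusted p = 2.25e-04). Of the 13 genes for eIF2, its kinases and its exchange factor, 5 fell in KO1 and only EIF2AK3 rose. The lower genes were EIF2S1 and the exchange factor subunits EIF2B3 (-0.31), EIF2B5 (-0.27), EIF2B4 (-0.20) and EIF2B1 (-0.20). None of the 13 passed in CBFB KO or KO2.

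The other ATF4 targets moved in both directions. Of 27 tested, 6 fell and 4 rose in CBFB KO, and 11 fell and 5 rose in KO1, and of 25 tested, 4 fell and 4 rose in KO2. The medians were -0.12, -0.20 and -0.14. STC2, a secreted glycoprotein hormone, had -0.91 (CBFB KO, SE 0.28), -1.23 (KO1, SE 0.09) and -0.93 (KO2, SE 0.10). JDP2, a repressor of the AP-1 family, was at -0.54 (SE 0.18), -0.81 (SE 0.14) and -0.66 (SE 0.14) in the same order, and all of these STC2 and JDP2 values passed. DDIT4, an inhibitor of mTOR signaling, was at -1.81 in KO1 (SE 0.06) and -1.18 in KO2 (SE 0.08), and at -0.73 in CBFB KO, where it did not pass. The highest value of the list in each table was that of NIBAN1, a stress-induced gene listed as FAM129A, at 7.08, 6.46 and 5.50. ALDH1L2, a mitochondrial folate enzyme, fell in CBFB KO (-0.74, SE 0.11, adjusted p = 1.81e-09).

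Of the other 17 cytosolic tRNA synthetases, 6 fell in KO1 and none rose, led by FARSB (-0.42, SE 0.08), KARS1 (-0.37, SE 0.08) and IARS1 (-0.32, SE 0.06). In CBFB KO 3 fell (IARS1, FARSB and EPRS1) and 1 rose. The gene that rose, TARS1 (0.78, SE 0.08, adjusted p = 2.55e-22), lies among raised genes, since the 12 expressed genes on either side of it had a median of 0.68. The medians of the members' neighbors ran between -0.11 and 0.15 in CBFB KO, -0.23 (HERPUD1) and 0.15 in KO1, and -0.19 (PDIA6) and 0.18 in KO2. In KO2 the neighbors of PDIA6 were thus lower as well, beside its own -0.29.

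**Figure D4:**
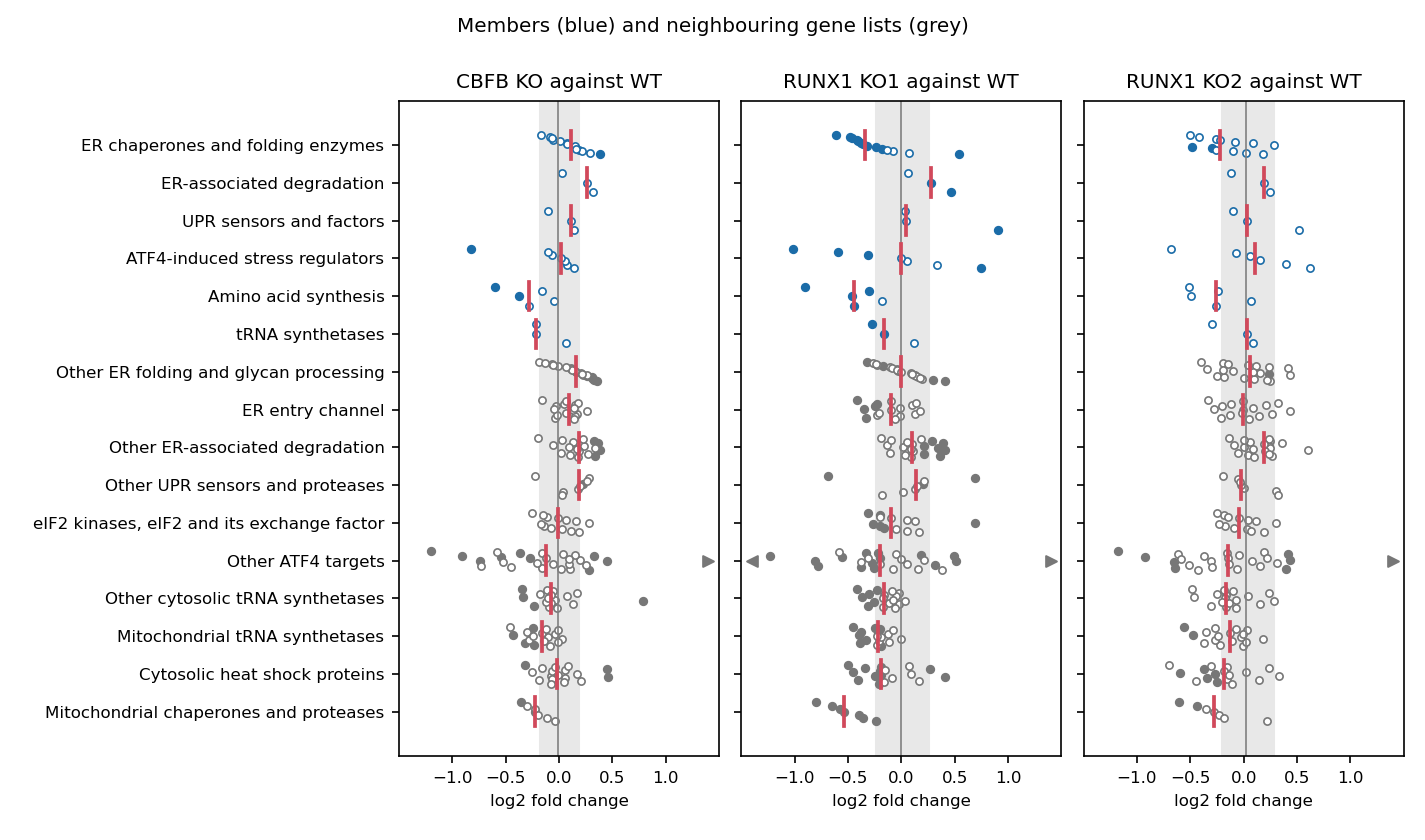
Log2 fold changes of the member lists (blue) and of related lists (gray), 1 panel per knockout. Each point is a gene, filled where the adjusted p is under 0.05, red bars are list medians, the gray band is the middle 50% of all genes tested, and arrowheads mark genes beyond the axis. The ER chaperone median lies at -0.34 in KO1 and 0.11 in CBFB KO.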

How the data were processed

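RNA from 18 MCF10A samples was sequenced. The submitters' processing notes name Trimmomatic, STAR, DESeq2 and hg19. The read counter and annotation are not given in the sources used here, and the labels (a TruSeq mRNA kit) and the study's methods (ribosomal RNA removal) differ on library preparation. The 3 deposited tables are the authors' own DESeq2 comparisons, 1 for each knockout, and every fold change, SE and adjusted p printed for a knockout is theirs. The deposited mean is a signal, the mean of normalized counts over the libraries of a comparison. The deposited log2 fold change may have been shrunk toward 0, and the deposited score is that change over its SE. The deposited p-value is adjusted by Benjamini and Hochberg. With 0 columns of per-sample values in them, no SD, replicate value or count model could be given, and depth per library is unknown. Nothing says that replicates came from separate cultures, so p-values measure only the spread between these samples.

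Python 3.11.15 with pandas and scipy computed the rest. Symbols were those in the tables, joined by Entrez ID, and 3 members (WARS, AARS and GARS) have newer RefSeq symbols. WT and KO levels were solved from the mean and fold change with equal group sizes. The WT levels implied by the KO2 and KO1 tables differed by -0.13 to -0.05 on the log2 scale over 34 members. For length and GC content, the longest principal transcript in GENCODE 29 was used, available for 98.9% or more of the genes whose mean reached 100. Responses of CBFB KO and each RUNX1 clone were compared by a two-sided normal test, adjusted over all genes tested in both tables. That test was also run on simulated data. The simulated differences were larger than those called here, with noise drawn from the SEs that the test assumes. The simulation therefore does not check power or error at the sizes called here. Full statistics were given for members with an adjusted p under 0.05 and a log2 fold change of at least 0.5 in size in any table, and for HSPA5, XBP1, ATF4, DDIT3 and ASNS. Other members given in full were singled out after their values were seen. Of other lists, up to 5 genes per table with the largest changes and a mean of at least 100 were named, while ERN2, DCN and KRT5 were named after their values were seen. The members and lists were chosen with earlier results of these data known. Alternatives were stricter thresholds, a mean of at least 100, other adjustment, centering, and removal of a cubic trend on length and GC content.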

Additional observations from a re-analysis of the deposited data

Results flagged for a closer look

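Responses that differed between CBFB KO and a RUNX1 clone by the normal test of the difference, adjusted over all genes tested in both tables, are given here as the log2 fold change in CBFB KO minus that in the clone. Against KO1 the differences were 0.552 for PDIA4, 0.528 for SDF2L1, 0.522 for MANF, 0.469 for HSP90B1, 0.458 for CALR, 0.423 for DNAJB11, 0.393 for SHMT2 and -1.01 for ERN1. The log2 fold changes of the ER chaperones among them ran from -0.09 to 0.38 in CBFB KO, where CALR passed the test, and from -0.61 to -0.08 in KO1, where all but CALR passed. Against KO2 the differences were 0.628 for PDIA4 and 0.372 for PDIA6. After removal of the length and GC trend, HSP90B1 (0.455, adjusted p = 0.0424) and PDIA4 (0.488, adjusted p = 0.0301) still differed from KO1, and PDIA4 (0.607, adjusted p = 0.0137) from KO2. The others did not pass under that setting, with SDF2L1 at 0.20 (adjusted p = 0.637), MANF at 0.25 (adjusted p = 0.464), CALR at 0.29 (adjusted p = 0.276) and ERN1 at -0.86 (adjusted p = 0.0681). ERN1 was the only one with a mean under 100.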

How the results depend on the processing

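No paired analysis was possible because the tables hold no value per library, and leaving out single replicates was not run for the same reason. The numbers of members past the threshold were 5 (CBFB KO), 25 (KO1) and 2 (KO2). With a fold change of at least 2 they were 0, 1 and 0. An unadjusted p under 0.05 in the authors' Wald test was found for 8, 25 and 8 members, with no share over all genes given at that cut. At an adjusted p under 0.01 the CBFB KO count was 3, and with the length and GC trend removed the KO2 count was 5. Members whose response differed from CBFB KO numbered 8 (KO1) and 2 (KO2), which became 2 and 1 at an adjusted p under 0.01 and also 2 and 1 with the trend removed. The other settings kept each of these counts within 1.5-fold. The medians of the ER chaperones and of the ATF4 targets moved by less than the members' median SE under every setting run, but some small medians moved by over 1.5-fold, from -0.10 to as low as -0.17 (ATF4 targets, CBFB KO), from -0.02 to as low as -0.16 (ATF4 targets, KO2) and from 0.11 to 0.07 (ER chaperones, CBFB KO, trend removed). Single members lost a call with the trend removed for PSAT1 in CBFB KO and for MANF and DDIT3 in KO1, and gained one for WARS in CBFB KO and for PHGDH, CEBPB and AARS in KO2. No called member changed sign under trend removal or centering. The cause of these shifts was not tested. The SE of the KO2 table, with a median of 0.21 over genes with a mean of at least 100, limits what that table can resolve.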

Other observations

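Mitochondrial chaperones were lower in KO1. All 7 mitochondrial chaperones and proteases fell in KO1, beside 19.9% of all genes tested. The median of the 7 was -0.54 on the log2 scale. Among them were HSPE1 (-0.80, SE 0.11), LONP1 (-0.65, SE 0.08), HSPD1 (-0.57, SE 0.07) and TRAP1 (-0.54, SE 0.07). HSPD1 and HSPA9, which encode the mitochondrial heat shock proteins 60 and 70, passed in all 3 tables. HSPD1 was at -0.36 in CBFB KO (SE 0.12, adjusted p = 0.0155) and -0.61 in KO2 (SE 0.06, adjusted p = 7.92e-26), and HSPA9 was at -0.22 (SE 0.08, adjusted p = 0.0456) and -0.43 (SE 0.05, adjusted p = 7.73e-15). Of the 17 mitochondrial tRNA synthetases, 4 (CBFB KO), 9 (KO1) and 2 (KO2) fell, and none rose. Over all genes tested, 7.97%, 19.9% and 6.08% fell in the same order. EARS2 passed in each table, at -0.24, -0.37 and -0.47.

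Of 18 cytosolic heat shock proteins and cochaperones, 10 fell and 2 rose in KO1, 1 fell and 2 rose in CBFB KO, and 5 of 17 fell in KO2. Over all genes tested, 19.9% fell and 19.7% rose in KO1, 7.97% and 11.7% in CBFB KO, and 6.08% and 8.76% in KO2. The CBFB KO counts and the rises in KO1 lie near or under these shares, so they are not particular to the list. HSP90AA1, the inducible heat shock protein 90, was at -0.32 in CBFB KO (SE 0.08), -0.41 in KO1 (SE 0.11) and -0.60 in KO2 (SE 0.12), each past the threshold. HSPB1 and the cochaperone BAG3 rose in CBFB KO and KO1, with HSPB1 at 0.46 and 0.41. HSPA1A and HSPA1B, both lower in KO2, are near-identical copies, so their separate values are uncertain.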
